A study of Mus musculus with 31 samples.

Results

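Interferon-stimulated genes are the genes a cell switches on when it senses interferon, and 39 of them, from RNA sensors to antiviral enzymes and membrane-remodelling GTPases, were followed here in mouse macrophages with and without PPARγ. The 39 symbols are a list drawn up from general knowledge, and all of them had a row in the deposited table of 24302 symbols. They were chosen with earlier results of these data known, so the shares of members called below are not an independent test. Mx1, Mx2, Gbp5 and Ifi44 stayed under 1 FPKM (fragments scaled to gene length and library total) in every library, which left 35 members. Oas2 reached 1 FPKM in 1 library only and was not tested, so 34 of the 35 members entered the tests among 10327 genes in all that reached 1 FPKM in 3 or more libraries.

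The macrophages came from C57BL/6 mice aged 8.5 weeks, either PPARgammaMPKO animals, in which the nuclear receptor PPARγ is deleted in macrophages (called KO below), or control animals. Every mouse received 3% thioglycollate in the peritoneum, an irritant that draws monocyte-derived macrophages into the cavity, and cells were harvested after 4 days and cultured overnight. For each genotype the cells then stayed untreated or spent 24 h in DMSO (the solvent), in 1 uM rosiglitazone, a synthetic PPARγ ligand, or in 20 ng/mL interleukin 4 (IL4), a cytokine that signals through STAT6 and drives alternative activation. There were 31 bulk RNA-seq libraries, 15 KO and 16 control, with 4 in each of the 8 groups except KO cells with rosiglitazone, which had 3. The design names 4 mice per genotype, so libraries of different treatments within a genotype shared mice; which library came from which mouse, the deleted exons and the driver of the deletion were not given in the sources used here.

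Type I interferons bind the IFNAR receptor and, through the kinases JAK1 and TYK2, assemble a complex with STAT2 and IRF9 that binds the interferon-stimulated response element (ISRE) in promoters. Interferon-γ binds IFNGR and acts through JAK1 and JAK2 on a different element, the gamma-activated site (GAS), with the GTPases of the GBP and IRG families and Irf1 among its best-known targets. Macrophages are known for a low tonic level of this programme even without infection, which rests on constant low interferon signalling.

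As a check of the labels, the total Pparg signal was 39.1 to 48.2 FPKM in KO cells with rosiglitazone and 30.2 to 35.1 FPKM in control cells with rosiglitazone, so gene-level FPKM did not show the deletion. The PPARγ target Angptl4, a secreted lipase inhibitor, did separate the genotypes: it was 1.15 ± 0.95 FPKM in KO cells (SD, n = 3) and 29.2 ± 2.9 FPKM in control cells (SD, n = 4) with rosiglitazone. Summed macrophage markers lay between 991 and 1400 FPKM in every group. Most of that sum was Cd68, at 629 to 1090 FPKM, and other markers varied more over the libraries. Csf1r ran from 69.5 to 218 FPKM, Mertk from 14.5 to 46.3 FPKM and Fcgr1 from 3.21 to 15.1 FPKM. Of the 8 T and NK cell markers, 6 were under 0.1 FPKM in every library, and their sum never passed 0.281 FPKM. Summed mesothelial and fibroblast markers were higher in KO cells, for example 34 to 143 FPKM in KO cells and 3.66 to 36.9 FPKM in control cells with IL4, and conventional dendritic cell markers were 1.25 to 2.37 FPKM in KO cells and 0.505 to 0.949 FPKM in control cells with IL4; Flt3 of that list never passed 0.0157 FPKM. Resident peritoneal macrophage markers summed to 4.83 to 6.99 FPKM in KO cells and 2.77 to 3.78 FPKM in control cells with IL4, and neutrophil markers to 4.94 to 8.35 FPKM in KO cells and 11.6 to 21.7 FPKM in control cells with IL4. Of the resident list, Gata6 reached 3.30 FPKM over all libraries, but Timd4 never passed 0.116 FPKM and Prg4 never passed 0.201 FPKM. The neutrophil sum was mostly S100a8, at 4.23 to 29.4 FPKM over all libraries. S100a9 never passed 0.254 FPKM, and Cxcr2 and Mmp9 never passed 1.03 FPKM. The part of these cells in the results below was not tested, and in bulk RNA fewer cells of a type and less RNA per cell cannot be told apart. In each group 1 library carried over 10 FPKM of the Y-linked gene Ddx3y, and 3 libraries had a low FPKM sum. Rn45s, a ribosomal RNA precursor, was listed at 0 in untreated KO libraries 2, 3 and 4. It was also 0 in untreated control library 1 and control IL4 library 2, and 90.2 to 639 deposited FPKM elsewhere. The 3 libraries of low FPKM sum were all among those at 0. What set these libraries apart was not tested, and it cannot be fully told apart from the untreated state of KO cells. The table holds no read totals, but the steps between low FPKM values gave a relative depth of 0.594 to 1.54 times the median library.

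The promoters of several members show the elements through which interferon acts, and those of 8 members that changed in these cells are printed here, 130 bases up to the transcript start, 5′ to 3′ on the strand of the gene, from RefSeq's GRCm38.p6 assembly. Capitals mark the ISRE core (GAAANNGAAA, read on either strand) and, in Irf1, Igtp and Irgm2, also the GAS core (TTCNNNGAA); overlapping matches run together.
Gbp3, chr3:142559914-142560043, plus strand: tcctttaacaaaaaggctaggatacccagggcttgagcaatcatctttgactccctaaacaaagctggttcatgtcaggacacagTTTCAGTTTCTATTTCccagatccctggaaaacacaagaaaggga
Gbp2, chr3:142620533-142620662, plus strand: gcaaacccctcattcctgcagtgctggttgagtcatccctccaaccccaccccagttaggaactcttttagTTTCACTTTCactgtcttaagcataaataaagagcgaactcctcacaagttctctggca
Ifit1, chr19:34640759-34640888, plus strand: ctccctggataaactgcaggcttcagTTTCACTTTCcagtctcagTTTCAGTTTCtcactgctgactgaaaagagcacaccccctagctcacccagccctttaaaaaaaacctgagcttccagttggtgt
Rsad2, chr12:26456453-26456582, minus strand: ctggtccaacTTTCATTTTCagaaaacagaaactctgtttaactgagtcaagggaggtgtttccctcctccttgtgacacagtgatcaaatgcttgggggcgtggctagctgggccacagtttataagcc
Oas3, chr5:120777660-120777789, minus strand: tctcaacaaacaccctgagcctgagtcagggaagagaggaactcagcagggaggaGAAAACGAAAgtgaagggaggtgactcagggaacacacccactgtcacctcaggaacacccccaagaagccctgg
Irgm2, chr11:58214847-58214976, plus strand: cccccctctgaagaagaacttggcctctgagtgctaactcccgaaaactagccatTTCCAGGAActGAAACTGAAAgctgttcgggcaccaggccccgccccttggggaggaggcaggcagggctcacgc
Igtp, chr11:58199426-58199555, plus strand: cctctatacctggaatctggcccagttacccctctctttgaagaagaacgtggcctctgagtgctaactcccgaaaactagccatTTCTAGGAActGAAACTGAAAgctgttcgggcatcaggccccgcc
Irf1, chr11:53769884-53770013, plus strand: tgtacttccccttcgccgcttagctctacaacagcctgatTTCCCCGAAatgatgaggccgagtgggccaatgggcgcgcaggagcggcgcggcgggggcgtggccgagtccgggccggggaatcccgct

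In a window of 250 bases before to 50 bases after the start, the ISRE core was present in 19 of the 28 members that had a window (67.9%), against 3.97% of the 7891 tested genes with one. The GAS core was present in 10 of the 28 members (35.7%), against 8.39% of the tested genes. Irf1, itself a transcription factor of the interferon-γ response, held the GAS core and no ISRE core, whereas Gbp2 and Gbp3 held the ISRE core and no GAS core in this window. In Igtp and Irgm2, neighbouring IRG genes on chromosome 11, the GAS core lay just ahead of the ISRE core. Among members with a window, the ISRE core did not single out those that moved. It was in 10 of 17 members called in at least 1 comparison and in 9 of 11 called in none. The called members Usp18, Zbp1, Rtp4 and Dhx58 had no window, so their promoters were not examined. A match of letters is a description and does not show binding.

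The members' levels were low and uneven (heat map of the members by library). Averaged per length over treated and untreated libraries alike, Bst2, the membrane tether that holds budding virions, had the highest mean level over the 31 libraries, 30.7 FPKM. It was followed by Oas1a, which makes the oligoadenylate that activates RNase L, at 13.7 FPKM, and by Trim30a, a ubiquitin ligase of the TRIM family, at 13.4 FPKM. The order below Bst2 changed with the group: in KO cells with IL4, Irf1 (17.7 FPKM) and Gbp2 (14.9 FPKM) were above Oas1a (13.5 FPKM). The 5 nucleic acid sensors lay in a narrow band: Ddx58 (RIG-I), Ifih1 (MDA5), Dhx58 (LGP2), Eif2ak2 (PKR) and Zbp1, a sensor of Z-form nucleic acid, averaged between 2.61 and 5.51 FPKM. The 3 IFIT genes, whose proteins trap viral RNA, averaged between 0.504 and 0.848 FPKM, and Isg15, a ubiquitin-like modifier, averaged 1.14 FPKM. The GTPase genes Mx1 and Mx2 averaged 0.340 and 0.139 FPKM. Among the 25 members whose read steps could be resolved, the smallest number of reads in a library was 9, for Ifit3, and 8 of them had under 50 reads in some library. Ifit3, Oas1a, Oas1g and Trim30a have closely similar neighbouring copies, and their values are uncertain where counting split reads between copies.

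**Figure D1:**
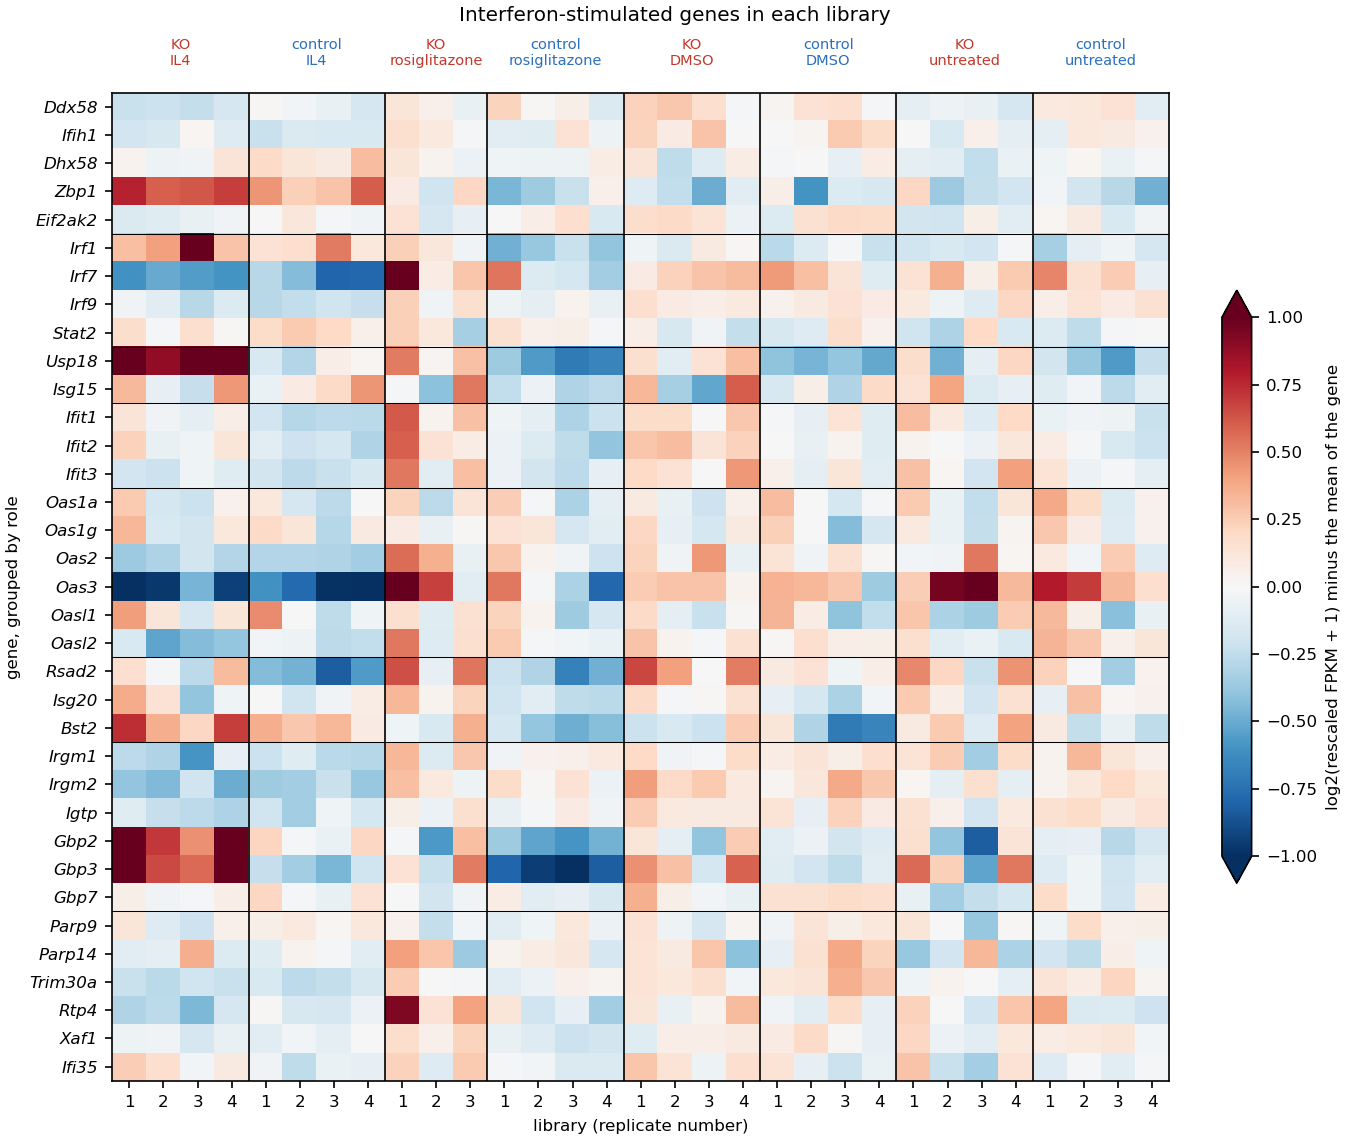
Heat map of the 35 members (down the page, by role) in the 31 libraries (across, KO left of control within each treatment); the colour is log2(rescaled FPKM + 1) minus the gene's mean over libraries. Usp18, Gbp2 and Gbp3 are darkest red in KO libraries with IL4, and Oas3 is blue in the IL4 libraries of both genotypes, down to 0.485 FPKM.

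Transcripts of the ligands and the receptor machinery were set beside these levels. Ifnb1, the macrophage's main type I interferon, was listed at 0 in all 31 libraries, and Ifng was listed at 0 in all but 1 KO library with IL4, where it was 0.0266 FPKM. Of the receptor chains, Ifnar1 averaged 17.1 ± 2.3 FPKM in KO cells and 13.5 ± 0.35 FPKM in control cells with IL4, within the range of the members. Ifnar2 averaged 40.2 ± 5.6 FPKM in KO cells and 36.8 ± 1.8 FPKM in control cells with IL4, and Ifngr2 averaged 76.3 ± 7.2 FPKM in KO cells and 69.7 ± 3.1 FPKM in control cells with IL4 (SD, n = 4 each). Levels of Cxcl10, a chemokine that both interferons induce, were 0.211 ± 0.17 FPKM in KO cells and 0.0825 ± 0.055 FPKM in control cells with IL4, and Cxcl10 passed the test in none of the 12 comparisons (smallest adjusted p = 0.221; limma).

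Loss of PPARγ was examined first without any ligand. In untreated cells no member passed the test (limma, Benjamini-Hochberg adjusted p under 0.05 over all tested genes), where 4.34% of all genes did. An unadjusted p under 0.05 was found for 6 of the 34 members, and for 1701 of the 10327 tested genes. Of those 6, Usp18 and Ifit1 had positive differences, KO minus control, of 0.29 ± 0.14 and 0.21 ± 0.10 (SE), while Gbp7, Oasl2, Ddx58 and Trim30a had negative ones between -0.14 and -0.24. Ifit1 stayed under 1 FPKM in every control library, so it entered the tests through KO libraries alone. All differences here are on the log2(FPKM + 1) scale, which understates the change of genes expressed at low levels, and each comes from FPKM rescaled so that the median gene matches between libraries. The median member difference was -0.02, against 0.00 for all genes. Gbp3 had 6.28, 4.78, 2.41 and 6.10 FPKM in untreated KO cells, against 3.49, 3.77, 3.27 and 3.57 FPKM in untreated control cells. The KO values spanned the control values, and the spread among KO libraries was the wider.

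With DMSO, 1 member rose in KO cells, where 3.53% of all genes changed and 1.34% rose. It was Usp18, the protease that strips ISG15 from proteins and also shuts down the IFNAR receptor. Usp18 was 2.96, 2.28, 2.92 and 3.37 FPKM in KO cells, against 1.69, 1.57, 1.72 and 1.48 FPKM in control cells. The lowest KO library lay above the highest control library, and the difference was 0.56 ± 0.14 (SE; limma, adjusted p = 0.0149). Without KO DMSO library 4 the adjusted p was 0.0539, and with FPKM as deposited it was 0.0961 (limma).

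With rosiglitazone, 9 of the 34 members were higher in KO than in control cells and none was lower, where 11.7% of all genes changed, 5.05% higher and 6.68% lower. The 9 came from several roles: Usp18, Gbp3, the IFIT genes Ifit1 and Ifit2, Rsad2, Rtp4, Xaf1, Irf1 and Isg20. Ifit1 had passed the filter of 1 FPKM through KO libraries alone, so its call is not independent of that choice. The median member difference was 0.19, against 0.00 for all genes, and 29 of 34 differences were above 0. The KO rosiglitazone group held 3 libraries, and without KO rosiglitazone library 1, the library of lowest relative depth (0.594), 5 members passed. Without the libraries with Ddx3y, an alternative chosen after seeing the data, 4 passed: the calls of Ifit1, Isg20, Irf1, Rsad2 and Xaf1 were lost (limma, adjusted p between 0.0877 and 0.341). The same 5 were lost with FPKM as deposited (0.0504 to 0.343). Fitting the compared groups alone left the calls of Irf1, Rsad2, Usp18 and Gbp3, with adjusted p from 0.0924 to 0.114 for Ifit2, Rtp4 and Xaf1 (limma). Ifit1 and Isg20 did not pass the filter on low values within these groups and were not tested there.

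Gbp3, an interferon-γ-inducible GTPase of the guanylate-binding family, was 4.43, 3.21 and 6.03 FPKM in KO cells with rosiglitazone, against 1.83, 1.55, 1.30 and 1.77 FPKM in control cells with rosiglitazone. The groups did not overlap, and the difference of 1.06 ± 0.21 (SE) had an adjusted p of 0.000555 (limma). Usp18 was 4.08, 2.62 and 3.34 FPKM in KO cells, against 1.77, 1.40, 1.17 and 1.24 FPKM in control cells with rosiglitazone. Again every KO library lay above every control library, by a difference of 0.85 ± 0.15 (limma, adjusted p = 0.000138). Ifit2, which binds viral RNA, was 1.77, 1.02 and 0.926 FPKM in KO cells, against 0.753, 0.664, 0.535 and 0.394 FPKM in control cells. Library 1 was far above its group here, yet the other KO libraries also lay above all control libraries (difference 0.48 ± 0.10; limma, adjusted p = 0.00193, and 0.0943 with the compared groups alone).

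Rsad2 encodes viperin, a radical-SAM enzyme that makes a chain-terminating nucleotide. It was 12.3, 7.02 and 11.3 FPKM in KO cells with rosiglitazone, against 6.31, 5.91, 4.32 and 5.10 FPKM in control cells with rosiglitazone. The difference of 0.78 ± 0.18 passed the test (limma, adjusted p = 0.00388), although KO library 2 lay close to the control range; the adjusted p was 0.0877 without the libraries with Ddx3y and 0.0566 with FPKM as deposited. Irf1 was 13.7, 12.5 and 11.2 FPKM in KO cells, against 7.97, 8.58, 9.71 and 8.51 FPKM in control cells. Its difference of 0.47 ± 0.14 (limma, adjusted p = 0.0233) had an adjusted p of 0.123 without KO library 1, 0.0604 without KO library 2, 0.0643 without control library 1 and 0.0515 without control library 2.

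The remaining members called with rosiglitazone were low and leaned on single libraries. Ifit1 averaged 1.19 ± 0.44 FPKM in KO cells (SD, n = 3) and 0.554 ± 0.13 FPKM in control cells (SD, n = 4). Rtp4, a receptor chaperone, averaged 2.16 ± 0.91 FPKM in KO cells and 1.02 ± 0.28 FPKM in control cells. Both lost the call without KO library 1 (adjusted p = 0.0606 for Ifit1 and 0.122 for Rtp4; limma). Isg20, an RNA exonuclease, averaged 1.21 ± 0.23 FPKM in KO cells and 0.661 ± 0.083 FPKM in control cells, with an adjusted p of 0.185 without that library, 0.107 without KO library 3, and 0.0659, 0.0856 and 0.0813 without control libraries 1, 3 and 4, and 0.064 with no filter on low values (limma). Xaf1, a pro-apoptotic factor, averaged 1.19 ± 0.14 FPKM in KO cells and 0.777 ± 0.076 FPKM in control cells, with an adjusted p of 0.0654 without KO library 3 (limma). Ifit3, at an adjusted p of 0.0506, lay just outside the threshold with a difference of 0.38 ± 0.13 (limma). Like Ifit1, Ifit3 stayed under 1 FPKM in every control library and was tested through KO libraries alone.

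**Figure D2:**
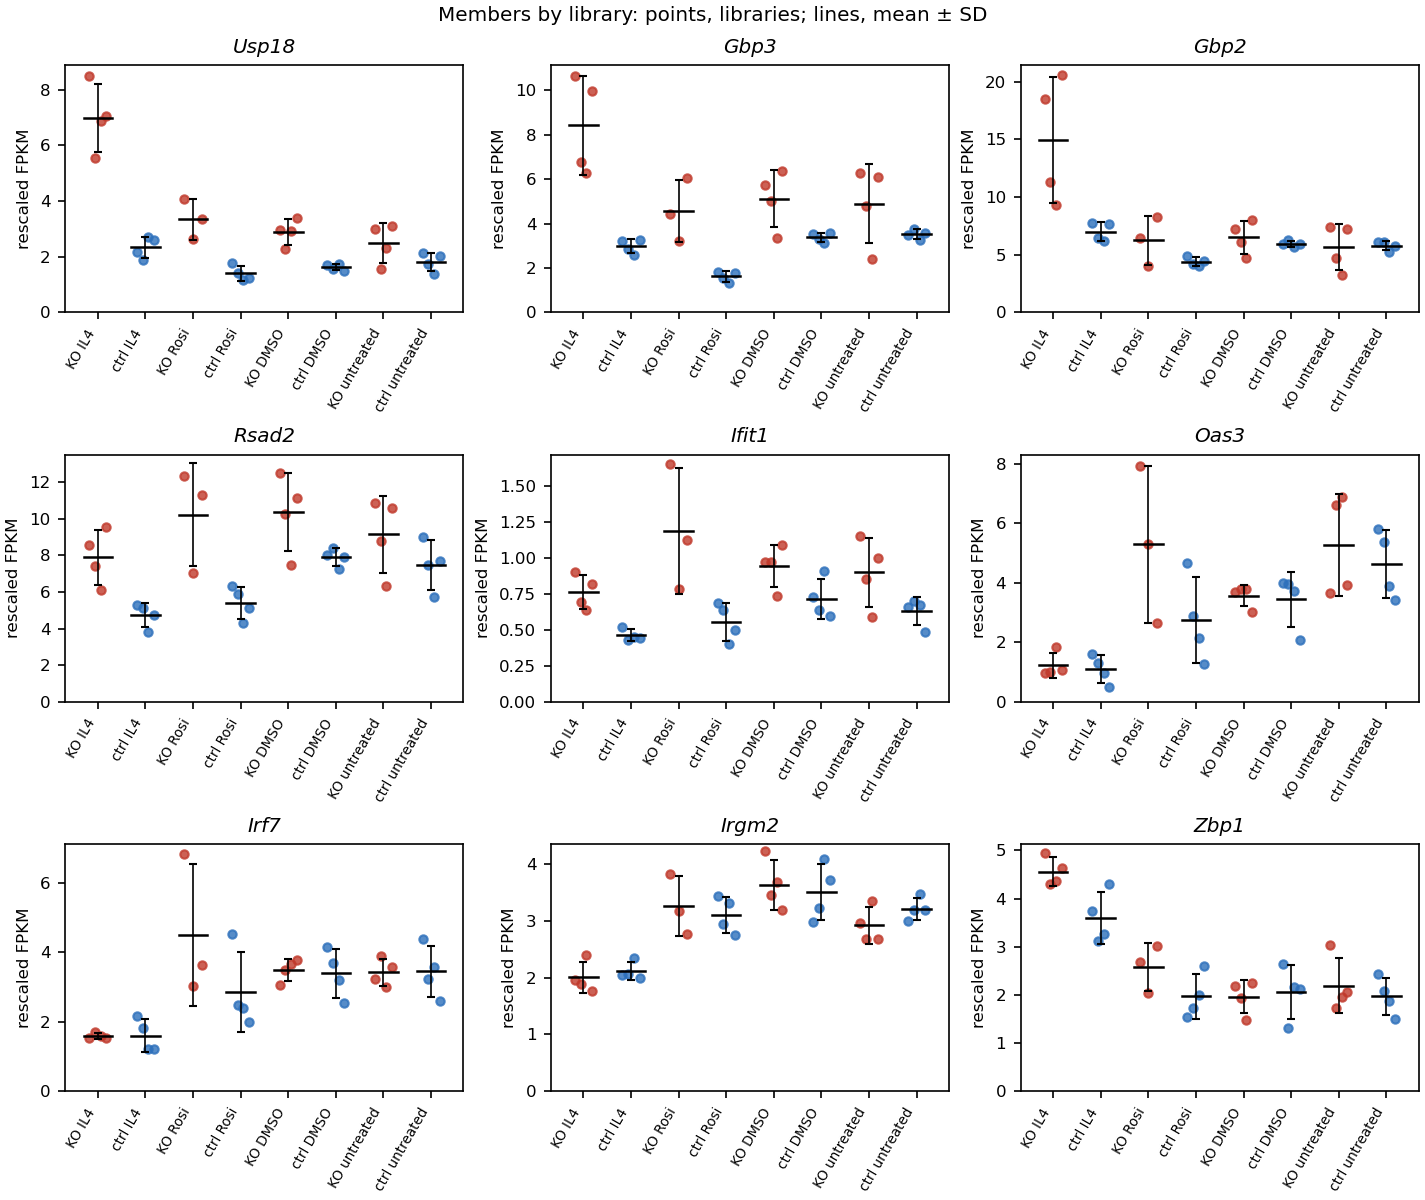
Rescaled FPKM (vertical axis, linear from 0) of 9 members in every library, with KO groups (red) left of control groups (blue, ctrl) within each treatment; points are libraries and lines the mean ± SD. The 4 KO libraries with IL4 sit above all control libraries with IL4 for Usp18, Gbp3 and Gbp2, while Oas3, Irf7 and Irgm2 are low with IL4 in both genotypes.

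With IL4, 4 of the 34 members were higher in KO cells and none was lower, where 10.8% of all genes changed, 5.06% higher and 5.77% lower. Usp18 was 8.51, 5.54, 6.87 and 7.04 FPKM in KO cells with IL4, against 2.18, 1.89, 2.71 and 2.58 FPKM in control cells with IL4. Every KO library was above every control library, and the difference of 1.25 ± 0.14 (SE; limma, adjusted p = 1.14e-07) was the member difference between genotypes with the smallest p in any treatment. Gbp3 was 10.7, 6.76, 6.29 and 9.99 FPKM in KO cells, against 3.19, 2.86, 2.58 and 3.27 FPKM in control cells, a difference of 1.22 ± 0.19 (limma, adjusted p = 3.83e-05).

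Gbp2, a GTPase that breaks open pathogen-containing vacuoles, was 18.5, 11.3, 9.32 and 20.6 FPKM in KO cells with IL4, against 7.75, 6.41, 6.18 and 7.67 FPKM in control cells with IL4. KO libraries 1 and 4 were the high ones for Gbp2 and Gbp3 alike, but the lowest KO library still lay above the highest control library (difference 0.93 ± 0.21; limma, adjusted p = 0.00259). Rsad2 was 8.56, 7.40, 6.09 and 9.57 FPKM in KO cells, against 5.29, 5.12, 3.81 and 4.73 FPKM in control cells. Its difference of 0.63 ± 0.17 (limma, adjusted p = 0.0142) had an adjusted p of 0.0636 without KO library 4, 0.0701 without control library 3, 0.0577 without the libraries with Ddx3y and 0.0531 with FPKM as deposited. The neighbour Gbp7, of the same family, averaged 1.46 ± 0.092 FPKM in KO cells and 1.54 ± 0.23 FPKM in control cells with IL4 (SD, n = 4 each) and did not pass the test.

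**Figure D3:**
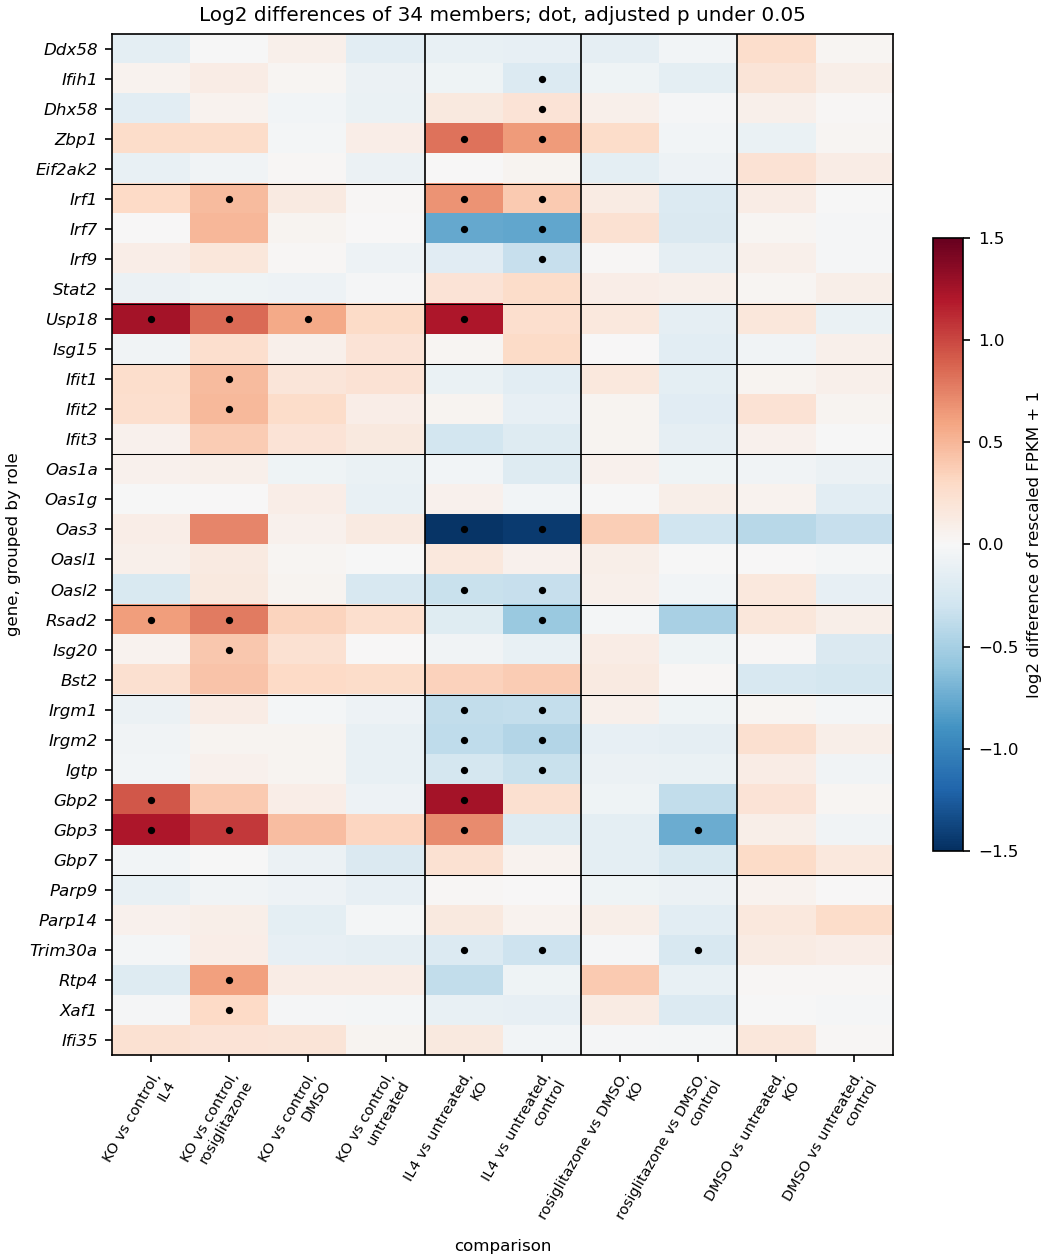
Differences on the log2(FPKM + 1) scale (colour) of the 34 tested members (down the page, by role) in 10 comparisons (across), with a dot where the member passed the test. The KO against control columns hold 4 dots with IL4, 9 with rosiglitazone, 1 with DMSO and 0 in untreated cells, all on higher values; the IL4 columns hold 12 dots in KO cells and 13 in control cells, in both directions.

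IL4 itself moved the members in both directions, and in both genotypes. The untreated KO baseline, here and in the response difference below, held libraries 2, 3 and 4 with Rn45s at 0. In KO cells 5 members rose and 7 fell against untreated KO cells, where 19.5% of all genes changed (10.1% up and 9.38% down). In control cells 3 rose and 10 fell against untreated control cells, where 23% of all genes changed (11.9% up and 11.1% down). The shares of members called were 35.3% in KO cells and 38.2% in control cells. Leaving out control IL4 library 3 left 8 control calls, and leaving out the libraries with Ddx3y also left 8, without Irf1, Rsad2, Ifih1, Dhx58 and Irgm1 (limma, adjusted p 0.0647 to 0.155). In KO cells that alternative lost the calls of Oasl2, Irgm1, Igtp, Gbp3 and Trim30a (0.0503 to 0.206). Fitting the 2 KO groups alone lost those of Irf1, Oasl2, Irgm1, Igtp, Gbp3 and Trim30a (0.0513 to 0.15). With FPKM as deposited, where the median over all genes was 0.21 in KO cells and -0.1 in control cells, KO cells lost the calls of Oasl2, Irgm1, Irgm2, Igtp and Trim30a (0.38 to 0.892), and control cells kept those of Oas3, Irf7 and Irgm2 only (0.0762 to 0.817 for the rest).

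Oas3, the long oligoadenylate synthetase that activates RNase L, fell in both genotypes. It was 0.961, 1.01, 1.85 and 1.05 FPKM in KO cells with IL4, against 3.66, 6.61, 6.89 and 3.91 FPKM in untreated KO cells. In control cells it was 1.59, 1.29, 0.977 and 0.485 FPKM with IL4, against 5.82, 5.36, 3.90 and 3.42 FPKM without. The groups did not overlap in either genotype, and the differences were -1.47 ± 0.26 in KO cells (limma, adjusted p = 0.000103) and -1.44 ± 0.26 in control cells (adjusted p = 0.000123). Oas2, too low to be tested, had 0.144 ± 0.061 FPKM in KO cells with IL4 and 0.542 ± 0.32 FPKM in untreated KO cells, and 0.127 ± 0.022 FPKM in control cells with IL4 and 0.449 ± 0.17 FPKM in untreated control cells (SD, n = 4 each). Oas1a, Oas1g and Oasl1 of the same family passed the test in no comparison, so the oligoadenylate synthetases did not move as 1 block.

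Irf7, the factor that amplifies type I interferon transcription, was 1.52, 1.69, 1.60 and 1.52 FPKM in KO cells with IL4, against 3.24, 3.88, 2.99 and 3.59 FPKM in untreated KO cells. In control cells it was 2.16, 1.83, 1.2 and 1.22 FPKM with IL4, against 4.37, 3.24, 3.56 and 2.60 FPKM without. The difference was -0.77 ± 0.18 in each genotype (limma, adjusted p = 0.00203 in KO cells and 0.00175 in control cells). Irf9, the DNA-binding subunit of the type I interferon complex, was 7.28, 7.48, 7.75 and 7.54 FPKM in control cells with IL4, against 9.53, 10.0, 9.64 and 10.1 FPKM without, a narrow and separate pair of groups (difference -0.35 ± 0.07; limma, adjusted p = 0.000249). In KO cells Irf9 was 8.79, 8.30, 7.27 and 8.11 FPKM with IL4, against 9.74, 8.67, 8.17 and 10.6 FPKM without, and these groups overlapped (difference -0.17 ± 0.07; limma, adjusted p = 0.0659).

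The IRG GTPases, which act on pathogen vacuoles, fell with IL4 in both genotypes. Irgm2 was 1.97, 1.88, 2.40 and 1.77 FPKM in KO cells with IL4, against 2.97, 2.68, 3.35 and 2.68 FPKM in untreated KO cells. In control cells Irgm2 was 2.05, 2.07, 2.34 and 2.00 FPKM with IL4, against 3.00, 3.20, 3.48 and 3.19 FPKM without, and neither pair of groups overlapped. The Irgm2 differences were -0.39 ± 0.09 in KO cells (limma, adjusted p = 0.00218) and -0.44 ± 0.09 in control cells (adjusted p = 0.000526). Irgm1, a regulator of the effector IRG proteins, was 9.35, 9.08, 7.27 and 10.7 FPKM in KO cells with IL4, against 12.7, 13.8, 8.79 and 13.1 FPKM without. In control cells Irgm1 was 9.70, 10.4, 9.32 and 9.22 FPKM with IL4, against 11.8, 14.6, 12.5 and 11.9 FPKM without. The KO groups overlapped through untreated library 3 and the control groups did not (differences -0.37 ± 0.11 and -0.36 ± 0.11; limma, adjusted p = 0.0209 in KO cells and 0.0215 in control cells). The KO call had an adjusted p of 0.055, 0.091 and 0.0663 without untreated libraries 1, 2 and 4 and 0.09 without IL4 library 3, and the control call 0.0922 without untreated library 2 and 0.0553 and 0.0561 without IL4 libraries 3 and 4.

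Igtp, another IRG protein, was 3.94, 3.58, 3.48 and 3.33 FPKM in KO cells with IL4, against 4.97, 4.58, 3.70 and 4.76 FPKM in untreated KO cells. In control cells it was 3.68, 3.22, 4.21 and 3.75 FPKM with IL4, against 4.97, 5.10, 4.73 and 4.93 FPKM without. The control groups were apart and the KO groups overlapped at 1 library (differences -0.26 ± 0.08 in KO cells and -0.34 ± 0.08 in control cells; limma, adjusted p = 0.0163 and 0.00182). The KO call of Igtp had an adjusted p of 0.0631 and 0.0514 without untreated libraries 1 and 4, and 0.0573 without IL4 library 4. Trim30a was 11.3, 10.9, 11.5 and 11.3 FPKM in KO cells with IL4, against 12.9, 13.7, 13.3 and 12.4 FPKM without, and 11.9, 11.0, 11.2 and 11.8 FPKM in control cells with IL4, against 14.7, 14.1, 15.6 and 13.6 FPKM without. Its fall was small and even, at -0.20 ± 0.07 in KO cells (limma, adjusted p = 0.0289) and -0.31 ± 0.07 in control cells (adjusted p = 0.00074). The KO call of Trim30a had an adjusted p of 0.0894 and 0.0574 without untreated libraries 2 and 3, and 0.0587, 0.0822 and 0.0542 without IL4 libraries 1, 2 and 4. Without the 3 libraries of low FPKM sum it was 0.238, and with FPKM as deposited the Trim30a difference in KO cells was 0.04 (limma, adjusted p = 0.892).

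Oasl2, an antiviral OAS-like protein, was 2.86, 1.97, 2.17 and 2.27 FPKM in KO cells with IL4, against 3.78, 2.95, 3.08 and 2.85 FPKM without. In control cells it was 3.19, 3.13, 2.58 and 2.61 FPKM with IL4, against 4.43, 4.16, 3.43 and 3.66 FPKM without. The differences were -0.33 ± 0.11 in KO cells and -0.34 ± 0.11 in control cells (limma, adjusted p = 0.036 and 0.0257). The KO call of Oasl2 had an adjusted p of 0.125 and 0.0517 without untreated libraries 1 and 3 and 0.126, 0.071 and 0.0723 without IL4 libraries 2, 3 and 4; the control call had 0.0862 and 0.0708 without untreated libraries 1 and 2 and 0.0831 and 0.0762 without IL4 libraries 3 and 4. With a pseudocount of 5, no filter on low values or without the 3 libraries of low FPKM sum, the KO call of Oasl2 had an adjusted p of 0.0598, 0.0641 and 0.081 (limma). Rsad2 fell in control cells, to 5.29, 5.12, 3.81 and 4.73 FPKM with IL4, against 8.98, 7.49, 5.70 and 7.70 FPKM without (difference -0.55 ± 0.17; limma, adjusted p = 0.0176, and 0.0676 without untreated library 1 or 0.0722 without IL4 library 3). In KO cells Rsad2 was 8.56, 7.40, 6.09 and 9.57 FPKM with IL4, against 10.9, 8.80, 6.30 and 10.6 FPKM without, and did not pass. Ifih1 also fell in control cells, by 0.21 on the log2 scale with an adjusted p of 0.0491 (limma), at the edge of the threshold, and between 0.0759 and 0.129 without any of IL4 libraries 1 to 4 or untreated libraries 2 to 4. Ifih1 also missed the threshold with TMM scaling, a pseudocount of 5, no filter, a robust prior and without the 3 libraries of low FPKM sum (adjusted p 0.05 to 0.0726; limma).

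A smaller set rose with IL4. Zbp1 was 4.95, 4.29, 4.36 and 4.64 FPKM in KO cells with IL4, against 3.03, 1.72, 1.96 and 2.06 FPKM in untreated KO cells. In control cells it was 3.74, 3.11, 3.26 and 4.30 FPKM with IL4, against 2.43, 2.07, 1.88 and 1.5 FPKM without. Both pairs of groups were apart (differences 0.82 ± 0.14 in KO cells and 0.63 ± 0.14 in control cells; limma, adjusted p = 7.06e-05 and 0.00114). Irf1 was 14.4, 15.6, 26.7 and 14.2 FPKM in KO cells with IL4, against 9.86, 10.3, 9.97 and 11.3 FPKM without, and 12.8, 13.0, 16.9 and 12.4 FPKM in control cells with IL4, against 8.94, 10.7, 11.1 and 10.1 FPKM without. Library 3 was the high one in each IL4 group; the differences were 0.68 ± 0.13 in KO cells (limma, adjusted p = 0.000303) and 0.39 ± 0.13 in control cells (adjusted p = 0.0276, but 0.125 without control IL4 library 3 and 0.0916 and 0.0562 without untreated libraries 1 and 4). Dhx58, a regulator of the RIG-I sensors, rose in control cells by 0.20 ± 0.07 (limma, adjusted p = 0.041), and had an adjusted p between 0.0521 and 0.151 without any of untreated libraries 1 to 4 or IL4 libraries 1 and 4, and 0.0593 with no filter on low values.

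Usp18, Gbp2 and Gbp3 passed the IL4 test in KO cells and not in control cells. Usp18 was 8.51, 5.54, 6.87 and 7.04 FPKM in KO cells with IL4, against 3.00, 1.54, 2.32 and 3.10 FPKM in untreated KO cells, a difference of 1.21 ± 0.14 (limma, adjusted p = 1.5e-07). In control cells Usp18 was 2.18, 1.89, 2.71 and 2.58 FPKM with IL4, against 2.12, 1.72, 1.39 and 2.03 FPKM without. Gbp2 was 18.5, 11.3, 9.32 and 20.6 FPKM in KO cells with IL4, against 7.40, 4.72, 3.25 and 7.23 FPKM in untreated KO cells (difference 1.25 ± 0.21; limma, adjusted p = 5.19e-05). Gbp3 was 10.7, 6.76, 6.29 and 9.99 FPKM in KO cells with IL4, against 6.28, 4.78, 2.41 and 6.10 FPKM in untreated KO cells (difference 0.71 ± 0.19; limma, adjusted p = 0.00815), and without the 3 libraries of low FPKM sum its adjusted p was 0.243.

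The difference between the genotypes' IL4 responses was tested directly. It passed for 1 member, Usp18, where 0.697% of all genes passed: the KO response exceeded the control response by 0.96 ± 0.19 (SE; limma, adjusted p = 0.00885). For Gbp2 and Gbp3 the response differences were 1.01 ± 0.29 and 0.90 ± 0.27, with adjusted p of 0.181 and 0.225 (limma), so a difference in their response was not shown at the threshold. The Usp18 call was lost without the 3 libraries of low FPKM sum, 2 of which are untreated KO libraries (difference 0.66; limma, adjusted p = 0.274), with the compared groups alone (0.0731) and with FPKM as deposited (0.0767).

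**Figure D4:**
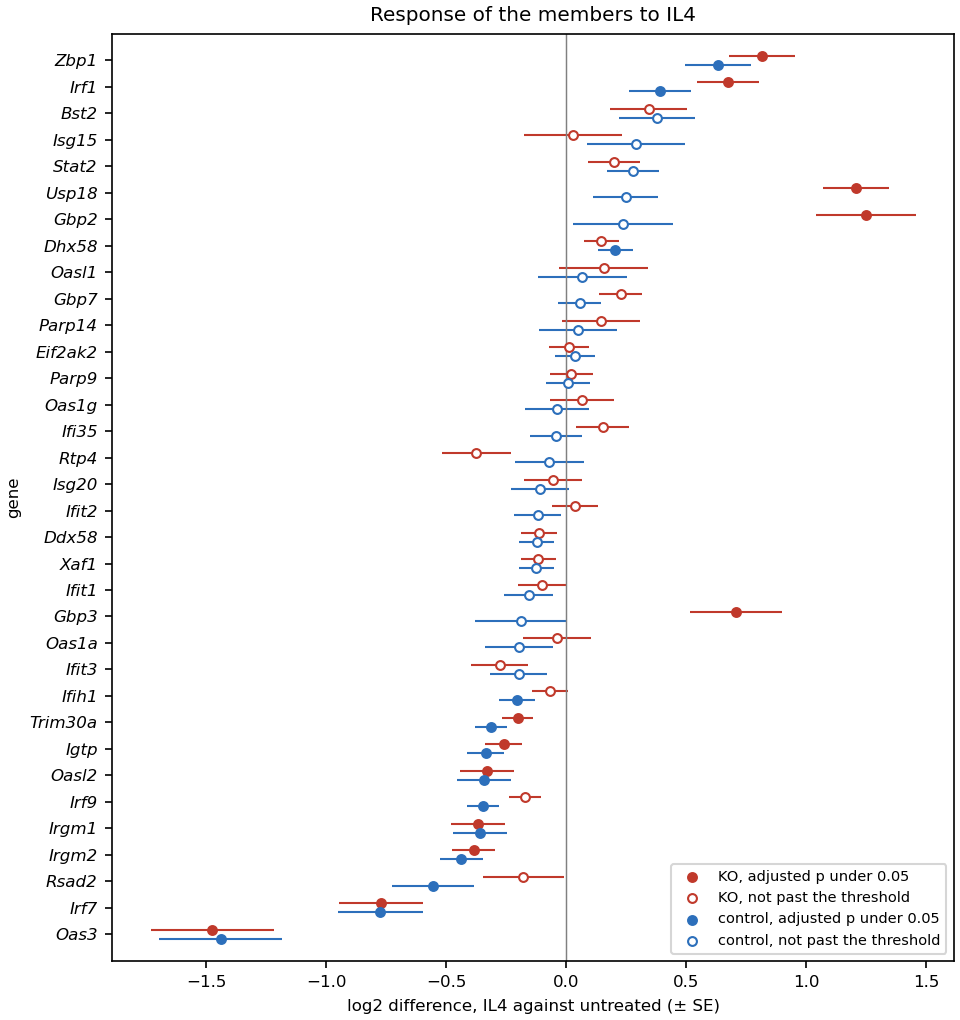
IL4 minus untreated differences on the log2(FPKM + 1) scale (horizontal axis, with SE bars) for the 34 tested members (down the page), KO cells in red above control cells in blue; filled points passed the test. Oas3 lies at -1.47 in KO cells and -1.44 in control cells, and Usp18 at 1.21 in KO cells with an open point near 0 in control cells.

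Rosiglitazone against its DMSO solvent moved few members. In KO cells no member passed, as did no gene at all (limma; 0% called, with 1 member and 151 genes at an unadjusted p under 0.05). In control cells 2 members fell and none rose, where 4.46% of all genes changed (3.11% up and 1.36% down). The median member difference in control cells was -0.13, against 0.00 for all genes, with 3 of 34 above 0; in KO cells it was 0.06, with 21 of 34 above 0. Gbp3 was 1.83, 1.55, 1.30 and 1.77 FPKM in control cells with rosiglitazone, against 3.51, 3.31, 3.12 and 3.55 FPKM in control cells with DMSO, a clean separation (difference -0.75 ± 0.19; limma, adjusted p = 0.0195). In KO cells Gbp3 was 4.43, 3.21 and 6.03 FPKM with rosiglitazone, against 5.74, 5.03, 3.35 and 6.38 FPKM with DMSO, and the groups overlapped.

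Trim30a was 12.3, 12.7, 13.8 and 13.6 FPKM in control cells with rosiglitazone, against 14.4, 14.7, 17.4 and 16.3 FPKM in control cells with DMSO (difference -0.24 ± 0.07; limma, adjusted p = 0.0334). Without control DMSO library 4 the adjusted p was 0.0561 for Gbp3 and 0.105 for Trim30a, and without control rosiglitazone library 2 it was 0.057 and 0.108 (limma). Gbp3 had 0.0606 without control rosiglitazone library 3, and Trim30a had 0.163 without control DMSO library 3 and 0.131 without control rosiglitazone library 1. No member passed without the libraries with Ddx3y (0.188 for Gbp3 and 0.113 for Trim30a) or with FPKM as deposited (0.301 and 1). Gbp3 had an adjusted p of 0.0897 with a pseudocount of 5, and Trim30a 0.138 with the compared groups alone (limma). Rsad2 was 6.31, 5.91, 4.32 and 5.10 FPKM in control cells with rosiglitazone, against 8.04, 8.41, 7.26 and 7.92 FPKM with DMSO; the groups did not overlap, but the adjusted p was 0.124 (difference -0.48 ± 0.17; limma). The difference between the genotypes' rosiglitazone responses passed for no member, where 0.804% of all genes passed (limma; 4 members and 622 genes had an unadjusted p under 0.05). Its median over members was 0.16, against 0.00 for all genes, and 31 of 34 were above 0, with Xaf1 at the smallest adjusted p, 0.293. The KO-against-control and the rosiglitazone-against-DMSO comparisons share the control rosiglitazone libraries, so their values are not independent of each other. The fit also held no term for mice shared between treatments. Counts with blocks by library number, which differ for the response difference, are given in the closing section.

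DMSO against untreated cells moved no member in either genotype, and no gene of all those tested (limma; 0% called). In KO cells 6 members and 512 genes had an unadjusted p under 0.05, and in control cells 0 members and 681 genes did. The median member difference in KO cells was 0.08, against 0.00 for all genes, with 28 of 34 above 0. In control cells it was 0.01, against -0.02 for all genes, with 18 of 34 above 0. A lopsided count of signs was thus also seen in KO cells with the solvent alone.

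The level of the whole set varied more among KO libraries than among control libraries. Taking for each library the median over the 34 members of the deviation from the gene's mean (log2 scale), the values were -0.05, 0.16 and 0.23 in KO cells with rosiglitazone and ran from -0.17 to -0.05 in control cells with rosiglitazone. With IL4 they ran from -0.17 to 0.09 in KO cells and from -0.13 to -0.05 in control cells. With DMSO they ran from 0.00 to 0.18 in KO cells and from -0.02 to 0.06 in control cells, and in untreated cells from -0.16 to 0.14 in KO cells and from -0.05 to 0.05 in control cells. KO rosiglitazone library 1, the highest of all, had 30 of 34 members above their own mean and is the library of that group with Ddx3y. KO library 3 was the lowest of its group in untreated, DMSO and IL4 cells. Ddx3y was carried by control library 1 in every treatment, and by KO library 2 in every treatment but rosiglitazone. Xist, an RNA made from the inactive X chromosome, was at most 1.41 FPKM in the libraries with Ddx3y. In all others it was 12.7 to 42.5 FPKM, so the fits without the libraries with Ddx3y hold libraries of female expression only. Whether library number marks a mouse was not given in the sources used here. Treatments within a genotype shared mice, so the wider KO spread in each treatment is not a separate observation.

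**Figure D5:**
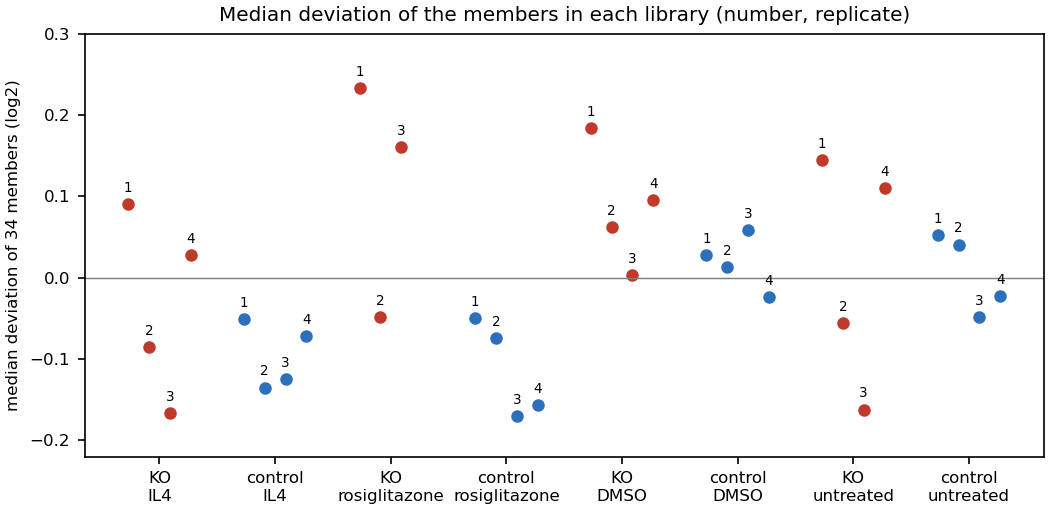
Median deviation of the 34 tested members from each gene's mean over libraries (vertical axis, log2 scale) for every library, with KO left of control within each treatment and numbers giving the library within its group. The KO points spread more widely than the control points in each of the 4 treatments, and KO rosiglitazone libraries 1 and 3 are above all control rosiglitazone libraries.

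The pathway that feeds these genes was covered by a list of 38 genes (interferons, receptors, kinases, STATs, IRFs, toll-like receptors, adaptors and inhibitors), of which 30 were tested. Between KO and control cells the list had 1 higher and 2 lower in the untreated state. It had 1 higher in DMSO, 2 higher and 2 lower in rosiglitazone, and 1 higher and 4 lower in IL4. The shares called were 10% untreated, 3.33% with DMSO, 13.3% with rosiglitazone and 16.7% with IL4, against 4.34%, 3.53%, 11.7% and 10.8% of all genes. DMSO changed none of them in either genotype, and rosiglitazone changed none in KO cells (limma; 2, 2 and 1 at an unadjusted p under 0.05 in control DMSO, KO DMSO and KO rosiglitazone). Of all tested genes, 681, 512 and 151 were under that value in the same comparisons. Irf5, a factor downstream of toll-like receptors, rose in KO cells in all 4 treatments, for example to 86.4 ± 9.3 FPKM in KO cells with IL4, against 63.1 ± 2.4 FPKM in control cells with IL4 (SD, n = 4 each; difference 0.44 ± 0.07 SE; limma, adjusted p = 4.09e-05). Mavs, the mitochondrial adaptor of the RIG-I sensors, was lower in KO cells without treatment, with rosiglitazone and with IL4; it was 5.67 ± 0.28 FPKM in KO cells and 9.83 ± 0.15 FPKM in control cells with IL4 (SD, n = 4 each; difference -0.70 ± 0.07 SE; limma, adjusted p = 1.21e-08).

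Ifngr1, the ligand-binding chain of the interferon-γ receptor, was 37.3 ± 2.3 FPKM in KO cells and 70.9 ± 7.4 FPKM in control cells with IL4 (SD, n = 4 each), a difference of -0.91 ± 0.09 (SE; limma, adjusted p = 1.32e-08). Its IL4 response differed between genotypes by -0.71 ± 0.12 (limma, adjusted p = 0.0018), and it rose with IL4 in control cells by 0.52 ± 0.09 (limma, adjusted p = 5.49e-05) while KO cells had 37.3 ± 2.3 FPKM with IL4 and 42.5 ± 2.0 FPKM untreated. Among the 30 pathway genes tested it was the only one whose IL4 response differed, as Mavs was the only one whose rosiglitazone response did (difference -0.58 ± 0.10; limma, adjusted p = 0.00119). IL4 raised Socs1, an inhibitor of JAK kinases and a target of STAT6, to 3.20 ± 0.31 FPKM in KO cells, against 0.190 ± 0.13 FPKM in untreated KO cells, and to 3.51 ± 0.28 FPKM in control cells, against 0.187 ± 0.058 FPKM in untreated control cells (SD, n = 4 each). It also raised Jak2, the kinase of the interferon-γ receptor, to 21.7 ± 0.25 FPKM in KO cells, against 7.55 ± 1.1 FPKM without, and to 18.4 ± 1.6 FPKM in control cells, against 8.00 ± 0.72 FPKM without. Irf8, a myeloid interferon regulatory factor, fell with IL4 in both genotypes, by 0.52 in KO cells and 0.54 in control cells (log2 scale; limma, adjusted p = 4.36e-07 and 2.25e-07).

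A further list of 68 interferon-inducible genes, 67 of them in the table and 55 tested, was set beside the members. KO against control, it had 0 higher and 2 lower in untreated cells, 1 and 2 with DMSO, 12 and 3 with rosiglitazone, and 7 and 2 with IL4. The shares called were 3.64% untreated, 5.45% with DMSO, 27.3% with rosiglitazone and 16.4% with IL4, against 4.34%, 3.53%, 11.7% and 10.8% of all genes. Ifitm3, which blocks virus entry at the endosome, was 93.0 ± 20 FPKM in KO cells (SD, n = 3) and 30.5 ± 4.7 FPKM in control cells with rosiglitazone (SD, n = 4; difference 1.57 ± 0.18 SE; limma, adjusted p = 3.08e-07). Ifi204, a DNA-sensing PYHIN protein, was 24.6 ± 2.7 FPKM in KO cells and 14.2 ± 1.0 FPKM in control cells with rosiglitazone (difference 0.75 ± 0.10; limma, adjusted p = 3.99e-06). Moving the other way, Lgals3bp, a secreted glycoprotein, was 21.1 ± 1.6 FPKM in KO cells and 49.9 ± 4.1 FPKM in control cells with rosiglitazone (difference -1.2 ± 0.11; limma, adjusted p = 2.77e-09), and it was lower in KO cells in all 4 treatments. Fcgr1, the high-affinity IgG receptor, was lower in KO cells in all 4 treatments too, at 3.4 ± 0.27 FPKM in KO cells and 8.24 ± 1.6 FPKM in control cells with IL4 (SD, n = 4 each).

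IL4 against untreated, the further list had 9 higher and 5 lower in KO cells, and 6 higher and 11 lower in control cells, or 25.5% and 30.9% of the list, against 19.5% and 23% of all genes. Psmb10, an immunoproteasome subunit, was 72.6 ± 3.9 FPKM in KO cells with IL4, against 22.6 ± 3.9 FPKM in untreated KO cells, and 60.4 ± 3.7 FPKM in control cells with IL4, against 22.0 ± 0.87 FPKM in untreated control cells (SD, n = 4 each). Ciita, the MHC class II transactivator, was 3.15 ± 1.4 FPKM in KO cells with IL4, against 0.752 ± 0.17 FPKM without, and 3.67 ± 1.2 FPKM in control cells with IL4, against 0.569 ± 0.23 FPKM without. Slfn8 fell in both genotypes, to 3.75 ± 0.40 FPKM in KO cells with IL4, against 5.95 ± 0.11 FPKM without, and to 3.98 ± 0.40 FPKM in control cells with IL4, against 6.69 ± 0.74 FPKM without. With rosiglitazone against DMSO, the further list had 0 called in KO cells (0 at an unadjusted p under 0.05; limma) and 2 higher and 6 lower in control cells (14.5% of the list, against 4.46% of all genes), among them Ifitm3 (difference -0.84 ± 0.17; limma, adjusted p = 0.00226) and Ifi204 (-0.54 ± 0.09; adjusted p = 0.000531).

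Of the 34 tested members, 21 (61.8%) passed in at least 1 of the 12 comparisons, where 35.8% of all genes did, and 13 passed in none: the sensors Ddx58 and Eif2ak2, Stat2, Isg15, Ifit3, the OAS genes Oas1a, Oas1g and Oasl1, Bst2, Gbp7, Parp9, Parp14 and Ifi35. Oas1a, the most abundant OAS gene, averaged 13.5 ± 2.3 FPKM in KO cells and 12.9 ± 1.6 FPKM in control cells with IL4, and 14.1 ± 2.5 FPKM in KO cells and 13.3 ± 2.3 FPKM in control cells with rosiglitazone. Isg15 averaged 1.30 ± 0.50 FPKM in KO cells and 1.36 ± 0.36 FPKM in control cells with IL4, while Usp18, the protease that removes its product from proteins, was 6.99 ± 1.2 FPKM in KO cells and 2.34 ± 0.38 FPKM in control cells there (SD, n = 4 each). Bst2 averaged 43.0 ± 7.7 FPKM in KO cells and 35.9 ± 3.1 FPKM in control cells with IL4, and 31.2 ± 6.2 FPKM in KO cells and 22.8 ± 2.3 FPKM in control cells with rosiglitazone, with an adjusted p of 0.122 in the rosiglitazone groups (limma). Parp14, an ADP-ribosyltransferase, averaged 11.5 ± 2.2 FPKM in KO cells and 10.8 ± 0.6 FPKM in control cells with IL4, and its spread among KO libraries covered the control values.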

How the data were processed

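RNA from thioglycollate-elicited mouse macrophages was made into libraries with a stranded total RNA kit, per the labels' protocols. The submitters' processing notes name TopHat2, featureCounts, edgeR and the build mm9, without versions or roles; the authors deposited 1 table of FPKM per gene for 31 libraries, with no read totals. The values of a single pathway gene are not reported here. The members and gene lists were chosen with earlier results of these data known.

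FPKM were divided by each library's median ratio to the gene's geometric mean and tested as log2(FPKM + 1) with limma 3.58.1 in R 4.3.3: group means, all 31 libraries, an intensity trend, 2-sided, 10327 genes reaching 1 FPKM in 3 or more libraries, Benjamini-Hochberg adjusted p under 0.05. TMM factors, computed directly, served as another scaling. 25 symbols turned into dates were left out. The script was tested on simulated data. Single-library values are given for up to 15 members: those called in the most comparisons, ties by smallest p, plus one per role. Up to 4 called members per direction were named by smallest p, and the other called members and the uncalled ones were named to account for every member. The labels tie no library to a mouse, so p-values measure the spread between libraries. Relative depth came from the ratio of low FPKM values (under 0.2) between libraries, and reads behind a member from the step at which all 31 values were whole within 0.1 read; reads and not molecules were counted. Alternatives were other scalings, pseudocounts, filters, priors, blocks and libraries left out. Promoter letters are from RefSeq's GRCm38.p6, not the authors' mm9.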

Additional observations from a re-analysis of the deposited data

Results flagged for a closer look

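Among 105 groups of 4 libraries checked over 15 members, 7 held a library set apart from its group by more than Dixon's 95% critical value; chance sets apart about 1 group in 20. Irf1 was 26.7 FPKM in KO IL4 library 3, with the others between 14.2 and 15.6 FPKM, and 16.9 FPKM in control IL4 library 3, with the others between 12.4 and 13.0 FPKM. Oas3 was 1.85 FPKM in KO IL4 library 3 (others 0.961 to 1.05 FPKM), 3.02 FPKM in KO DMSO library 4 (others 3.68 to 3.77 FPKM) and 2.07 FPKM in control DMSO library 4 (others 3.72 to 4.01 FPKM). Igtp was 5.42 FPKM in KO DMSO library 1 (others 4.73 to 4.77 FPKM), and Oasl2 was 4.13 FPKM in control rosiglitazone library 1 (others 3.09 to 3.25 FPKM).

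The IL4 response of Usp18 differed between the genotypes by 0.96 on the log2 scale, KO minus control, in the test of the difference itself (limma, adjusted p = 0.00885). The adjusted p was 0.0767 with FPKM as deposited, 0.0731 with the compared groups alone and 0.274 without the 3 libraries of low FPKM sum, where the difference was 0.66.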

How the results depend on the processing

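The values are numbers of members called. With FPKM as deposited they were 0 for KO against control with DMSO, 4 with rosiglitazone, 0 for rosiglitazone against DMSO in control cells, 7 and 3 for IL4 against untreated in KO and control cells, and 0 for the difference of IL4 responses. That scaling moved the median of all genes by up to 0.31 (log2), in the difference of IL4 responses, and Trim30a with IL4 in KO cells changed sign, to 0.04. With a pseudocount of 5, 1 member passed for rosiglitazone against DMSO in control cells. Fitting the compared groups alone gave 4 for KO against control with rosiglitazone, 6 for IL4 in KO cells and 0 for the difference of IL4 responses. In that rosiglitazone fit the filter on low values left Ifit1 and Isg20 untested. Without the 3 libraries of low FPKM sum, 1 passed for KO against control in untreated cells and 0 for the difference of IL4 responses. Without the libraries with Ddx3y, chosen after seeing the data, the numbers were 1 for KO against control in untreated cells, 4 with rosiglitazone, 0 for rosiglitazone against DMSO in control cells and 8 for IL4 in control cells. TMM scaling, a pseudocount of 0.1, no filter and a robust prior kept every number within 1.5 times. Fewer samples enter the fits that leave libraries out or hold the compared groups alone; elsewhere the cause was not tested.

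The replicate number pairs the libraries only in part: 8 of 15 KO and 13 of 16 control libraries correlated best with their own number, and pair correlations ran from -0.85 to 0.77 in KO cells. With the replicate block as titled, 2 members passed for KO against control with DMSO and 3 for the difference of IL4 responses. With the KO rosiglitazone libraries renumbered by the labels' running number, 15 of 15 KO libraries matched, as a hint from the data. For KO against control, both blocks join KO and control libraries of the same number, which came from different mice. The counts of these comparisons therefore do not account for the mouse. The renumbered block gave, for KO against control, 1 in untreated cells, 4 with DMSO, 14 with rosiglitazone and 7 with IL4. It gave 5 for rosiglitazone against DMSO in control cells, 2 for DMSO against untreated in KO cells, 3 for the difference of rosiglitazone responses and 4 for that of IL4 responses. Neither block lost the call of any member.

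Leaving out each library in turn gave 0 to 1 for KO against control with DMSO (0 without KO library 4), 5 to 11 with rosiglitazone (5 without KO library 1) and 3 to 4 with IL4. It gave 8 to 12 for IL4 in control cells (8 without IL4 library 3), 9 to 14 in KO cells and 1 to 2 for the difference of IL4 responses (2 without KO IL4 library 3). For rosiglitazone against DMSO in control cells it gave 0 to 2: 0 without DMSO library 4 or rosiglitazone library 2, and 1 without DMSO library 3 or rosiglitazone library 1 or 3. The other comparisons stayed at 0. For the up to 4 members per comparison and direction with the smallest p, 516 results were recomputed: 465 kept their direction and side of the threshold, 51 fell below it and 0 reversed; Trim30a above is outside these. Reads limit the low members: 8 of 25 with resolved steps had under 50 reads in some library.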
